A study of Gallus gallus with 8 samples.

Results

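The 9 genes described here encode proteins of the contacts between cells. They are the tight junction genes OCLN, CLDN1, CLDN5 and TJP1, the gap junction gene GJA1, and the adherens junction genes CDH1, CDH2, CDH5 and CTNNA1. They were chosen by name, and their probe sets are those to which the array annotation gives one of these symbols and no other. All 9 genes were on the array, with 15 of its 38535 probe sets. The series consists of 8 Affymetrix chicken genome arrays of total RNA, 2 per group. DPF+ and DPF- are 2 hen lines that were selected in opposite directions and differ in fertility. HG+ and HG- are hens from 1 line that differ in fertility. All hens were kept under the same light and feeding scheme, and every sample is given as F1 oocytes taken 24 h before ovulation. The labels call the arrays of a group biological replicates but do not say how many birds gave each sample or whether birds were pooled, so the p-values measure the spread between these arrays only. Age and the direction or history of the selection are not given in the sources used here.

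Tight junctions seal the space between neighbouring cells. Claudins and occludin span the membrane there, and ZO-1, the product of TJP1, ties them to actin. Gap junctions are channels that let small molecules pass from cell to cell. Connexin 43, the product of GJA1, is the main connexin of granulosa cells. In adherens junctions, cadherins bind each other across the gap between cells, and catenins such as alpha-catenin, the product of CTNNA1, link their tails to actin. CDH1 encodes the cadherin of epithelia, CDH2 the one of neural and mesenchymal cells and of granulosa cells, and CDH5 the one of blood vessels. In the avian follicle the oocyte lies inside a layer of granulosa cells, with theca cells and blood vessels outside it.

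Values are log2 expression levels as deposited, in which a difference of 1 is a doubling. Where both arrays of a group are given, replicate 1 stands before replicate 2. A level under 4 was not taken as above background, and a probe set was tested when it reached 4 on at least 2 of the 8 arrays, which held for 12725 probe sets. Levels were compared between arrays for 1 probe set at a time, and brighter and dimmer serve only to tell probe sets of a gene apart. Markers of follicle cells were detected beside part of those of the oocyte. Of the genes listed for oocyte and germ cells, GDF9, BMP15, DDX4, ZP1, ZP4, KPNA7 and ASTL did not pass the filter. Of the 16 granulosa marker genes on the array 15 passed the filter, of the 16 oocyte and germ cell genes 9, of the 13 endothelial genes 2 (EGFL7 and SOX17), of the 14 theca and stroma genes 2 (COL1A2 and PDGFRB), of the 8 epithelial genes 1 (EPCAM), of the 9 leukocyte genes 1 (CD74) and of the 5 red blood cell genes 0. A difference in level can therefore come from fewer cells of a type or from less RNA per cell, which cannot be told apart here. The DPF+ arrays were the least alike. Over all tested probe sets, replicates lay a median of 0.51 apart for DPF+ and 0.27 for DPF-, with 0.17 for HG+ and 0.16 for HG-. DPF+ replicate 1 correlated less with DPF+ replicate 2 (r = 0.927, across probe sets) than with DPF- replicate 2 (r = 0.977).

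Of the 9 genes, 7 had a tested probe set (10 of the 15 probe sets), and 6 had a probe set at 4 or more on every array. OCLN and CDH1 were not tested. The tested probe sets were 1 each of CLDN1, TJP1, GJA1 and CDH5 and 2 each of CLDN5, CDH2 and CTNNA1.

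**Figure D1:**
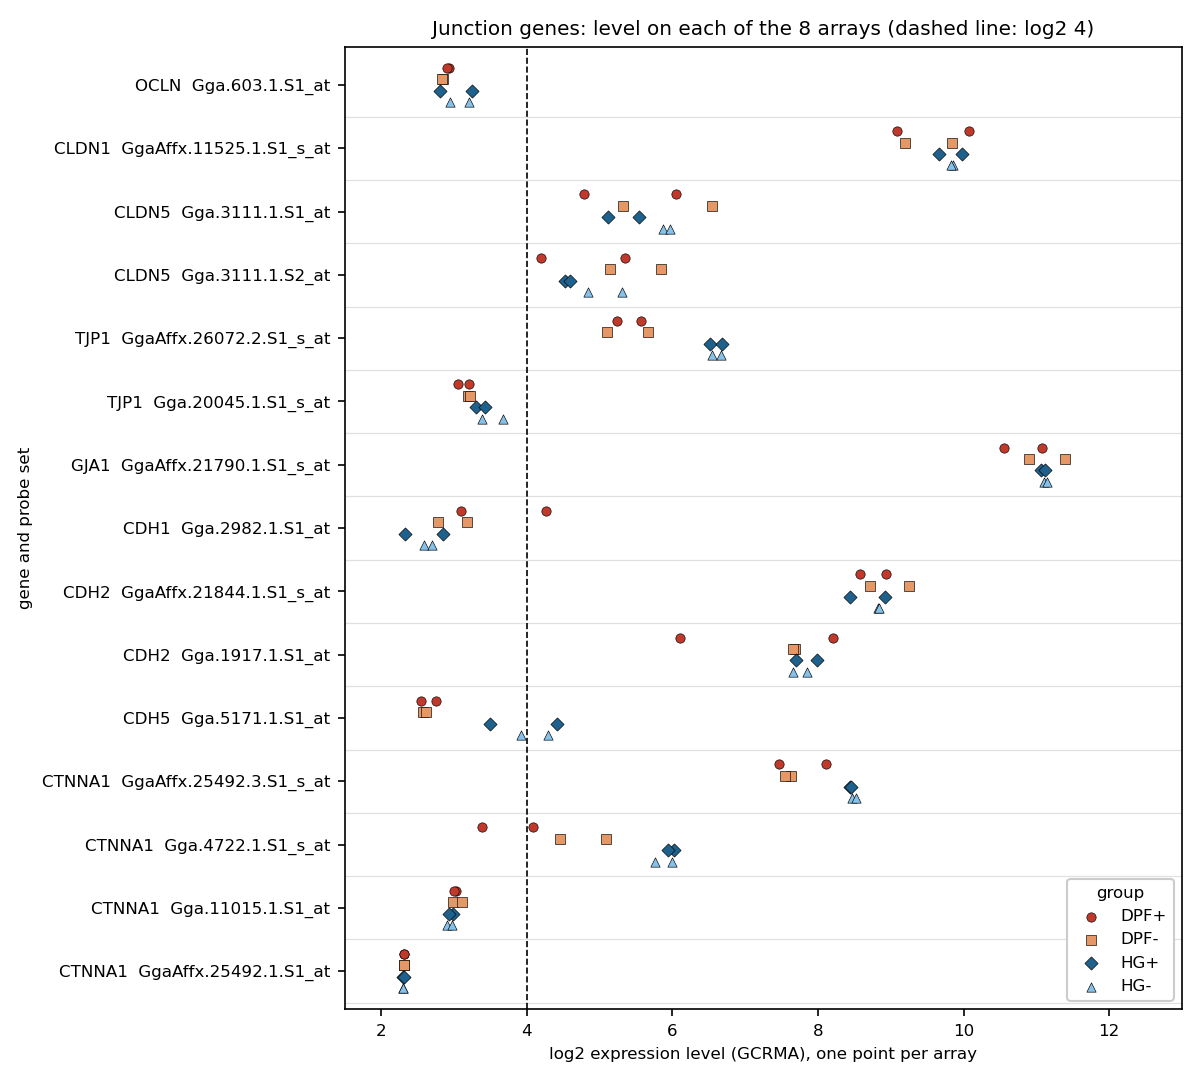
Log2 expression level (x axis) of the 15 probe sets of the 9 junction genes (y axis), with 1 point for each of the 8 arrays and a colour and symbol for each group. The dashed line marks the level of 4. TJP1, CDH5 and both tested probe sets of CTNNA1 have every DPF point left of every HG point, while CLDN5, GJA1 and CDH2 have overlapping points.

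Among the tight junction genes, CLDN1, a claudin of many epithelia, had levels of 9.08 and 10.08 in DPF+, 9.84 and 9.19 in DPF-, 9.66 and 9.98 in HG+, and 9.85 and 9.83 in HG-. It was above background on every array, and its 4 groups overlapped. The order within the DPF arrays did not follow the lines, since the higher pair was DPF+ replicate 2 and DPF- replicate 1.

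CLDN5, best known as the claudin of blood vessels, was read by 2 probe sets. The first gave 6.05 and 4.79 in DPF+, 5.32 and 6.54 in DPF-, 5.54 and 5.11 in HG+, and 5.87 and 5.97 in HG-. The second gave 5.35 and 4.20 in DPF+, 5.14 and 5.84 in DPF-, 4.53 and 4.59 in HG+, and 5.31 and 4.84 in HG-. Both probe sets put DPF+ replicate 2 lowest and DPF- replicate 2 highest of the 8 arrays, and in both the HG+ arrays lay below the HG- arrays.

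TJP1 encodes the scaffold ZO-1. Its tested probe set had 5.24 and 5.57 in DPF+, 5.67 and 5.10 in DPF-, 6.51 and 6.68 in HG+, and 6.55 and 6.67 in HG-. Every DPF array lay below every HG array, and within each source the fertility groups overlapped. Its other probe set stayed between 3.05 and 3.67, under the filter. OCLN, the occludin gene, was between 2.83 and 2.93 on the DPF arrays, against between 2.81 and 3.24 on the HG arrays, under 4 on each of them.

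GJA1, the connexin 43 gene, had levels of 11.08 and 10.56 in DPF+, 10.90 and 11.39 in DPF-, 11.06 and 11.12 in HG+, and 11.10 and 11.14 in HG-. The 4 HG arrays lay close together. DPF+ replicate 2 and DPF- replicate 1 lay below them, DPF- replicate 2 above them and DPF+ replicate 1 among them. The SD of GJA1 was 0.347 over the DPF arrays and 0.0342 over the HG arrays (n = 4 each). GJA1 was one of 2 genes of the gap junction list that passed the filter, of 13 on the array, and the only connexin gene that did. The other was PANX2, a pannexin, whose brighter probe set averaged 6.19 over the 8 arrays.

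Among the cadherins, CDH1 was under 4 on 7 of the 8 arrays. It had 3.09 and 4.26 in DPF+, 3.18 and 2.78 in DPF-, 2.85 and 2.32 in HG+, and 2.59 and 2.70 in HG-. Only DPF+ replicate 2 exceeded 4, and the gene was not tested. Another epithelial gene, EPCAM, which encodes a cell adhesion molecule, was well above background, at 9.89 to 11.47 in DPF and 10.51 to 11.17 in HG. It was the only one of the 8 epithelial marker genes on the array to pass the filter. The others were under 4 on every array, the highest value being 3.31 for CLDN4.

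CDH2, the N-cadherin gene, was well above background in both of its probe sets. The brighter one had 8.93 and 8.57 in DPF+, 8.71 and 9.25 in DPF-, 8.92 and 8.44 in HG+, and 8.82 and 8.84 in HG-. The other had 8.20 and 6.10 in DPF+, 7.68 and 7.66 in DPF-, 7.98 and 7.70 in HG+, and 7.66 and 7.85 in HG-. All 4 groups overlapped in the brighter probe set. In the other, DPF+ replicate 2 stood at 6.10, with each of the other 7 arrays at 7.66 or more, and the gap of 2.10 between the DPF+ arrays was the largest between replicates among the 10 tested probe sets.

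CDH5, the vascular cadherin gene, had 2.55 and 2.75 in DPF+, 2.57 and 2.61 in DPF-, 4.42 and 3.49 in HG+, and 3.92 and 4.29 in HG-. It passed the filter only through 1 HG+ and 1 HG- array, and it was under 4 on every DPF array. The defining endothelial genes PECAM1, KDR, TEK, TIE1 and VWF did not pass the filter. The highest HG value of any of their probe sets was 3.43 for PECAM1, 3.04 for KDR, 2.63 for TEK, 2.66 for TIE1 and 2.72 for VWF, and among the DPF arrays 1 reached 4, with 4.55 for PECAM1.

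CTNNA1, the alpha-catenin gene, had 4 probe sets, of which 2 were tested. The brighter one had 7.46 and 8.11 in DPF+, 7.63 and 7.54 in DPF-, 8.44 and 8.45 in HG+, and 8.46 and 8.52 in HG-. The other tested one had 3.39 and 4.08 in DPF+, 5.09 and 4.46 in DPF-, 6.02 and 5.94 in HG+, and 5.99 and 5.76 in HG-. Both placed all DPF arrays below all HG arrays, and the second also placed both DPF+ arrays below both DPF- arrays. The 2 untested probe sets stayed between 2.91 and 3.11 and between 2.30 and 2.31.

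DPF+ was compared with DPF- to find genes that differ between the selected lines. None of the 10 tested probe sets of the junction genes passed an adjusted p of 0.05 in limma. Neither did any other probe set (0%), with 781 of 12725 at an unadjusted p under 0.05 (6.14%), which 1 of the 10 reached. That one was the dimmer tested probe set of CTNNA1. It averaged 3.74 ± 0.49 in DPF+ and 4.78 ± 0.45 in DPF- (SD, n = 2 each), a log2 change of -1.04 ± 0.31 (SE, limma adjusted p = 0.554). Counted from 4 in place of the DPF+ mean, the change is -0.78 or lower. Of the 10, this probe set alone had no overlap between the lines. Among all tested probe sets 23.3% had none, 12.1% with DPF+ lower and 11.2% with DPF+ higher. The brighter CTNNA1 probe set had the opposite sign, at 0.20 ± 0.24.

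The other changes between the lines had wide intervals. CLDN5 was at -0.51 (95% interval -1.66 to 0.64) and -0.72 (-1.66 to 0.23), GJA1 at -0.33 (-0.86 to 0.21), and CDH2 at -0.23 (-0.84 to 0.38) in the brighter and -0.52 (-1.84 to 0.80) in the dimmer probe set. CLDN1 was at 0.07 (-0.75 to 0.88), TJP1 at 0.02 (-0.57 to 0.61) and CDH5, under 4 in both lines, at 0.06. Single DPF+ arrays decided several of these, and 1070 of the 12725 probe sets passed without DPF+ replicate 1, when the lone DPF+ array is taken to vary like the other groups. Without DPF+ replicate 1 the dimmer CDH2 probe set was at -1.57 and passed the test (adjusted p = 0.0251), and without DPF+ replicate 2 it was at 0.53. Leaving out DPF+ replicate 1 put CLDN1 at 0.57 and GJA1 at -0.59, and leaving out DPF+ replicate 2 put CLDN1 at -0.44 and GJA1 at -0.07.

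HG+ was compared with HG- to find genes that differ with fertility within a line. Again none of the 10 probe sets passed in limma, with 0 of all 12725 called (0%) and 45 of them (0.354%) at an unadjusted p under 0.05, none of which belonged to the 9 genes. CLDN5 had the 2 largest changes, at -0.60 ± 0.50 (SE) and -0.52 ± 0.41 in its probe sets. Averages were 5.33 ± 0.30 in HG+ and 5.92 ± 0.07 in HG- for the first, and 4.56 ± 0.04 in HG+ and 5.08 ± 0.33 in HG- for the second (SD, n = 2 each). The HG+ arrays lay below the HG- arrays without overlap in both CLDN5 probe sets and in the brighter one of CTNNA1, where the change was -0.05. That is 3 of 10, all with HG+ lower, and 25.1% of all tested probe sets did not overlap in this comparison, 14.4% with HG+ lower and 10.7% with HG+ higher. For GJA1 the change was -0.03 (95% interval -0.57 to 0.51), for TJP1 -0.02 (-0.60 to 0.57) and for CLDN1 -0.02 (-0.84 to 0.80). All 8 other changes lay between -0.15 and 0.11. All groups share a common estimate of spread in the fit. The intervals for HG+ against HG- therefore also carry the wider spread of the DPF arrays, and those for DPF+ against DPF- are narrowed by the HG arrays. With only the HG arrays fitted, 298 probe sets were at an unadjusted p under 0.05 and 0 passed. With array weights 349 were, and 0 passed (smallest limma adjusted p = 0.062).

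CLDN5 had a negative sign in both fertility comparisons and in both probe sets, and in neither did it pass. Its first probe set took a positive sign between the lines when either replicate 2 was left out, at 0.12 for that of DPF+ and 0.10 for that of DPF-. The difference between the comparisons was tested too, and no probe set passed (0%; 364 of 12725, or 2.86%, at an unadjusted p under 0.05). CTNNA1 had the smallest p among the 10, in its dimmer tested probe set, with a difference of -1.15 ± 0.43 (SE, limma adjusted p = 0.999).

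**Figure D2:**
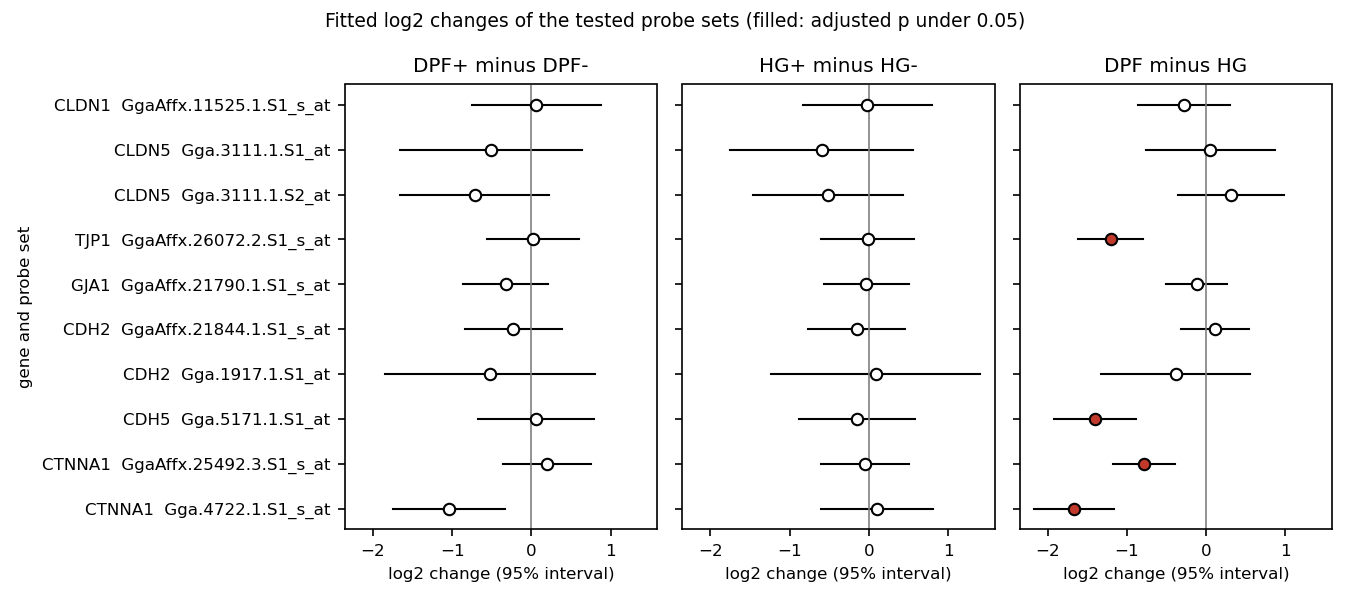
Fitted log2 change (x axis) with its 95% interval for the 10 tested probe sets (y axis) in 3 comparisons, each with the group named first minus the second. Filled points passed an adjusted p of 0.05. In both fertility comparisons every point is open, and for DPF minus HG those of TJP1, CDH5 and CTNNA1 are filled and lie between -1.67 and -0.78. CDH5 passed the filter only through HG arrays and had to differ, so its filled point is a description and not a test result.

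All DPF arrays were also compared with all HG arrays, which come from 2 sources of hens. TJP1, CTNNA1 and CDH5 were lower on the DPF arrays, in 4 of the 10 tested probe sets, and none was higher. Of all tested probe sets 9% were called lower and 3.48% higher (12.5% in all, and 29.7% at an unadjusted p under 0.05). These were 1145 lower and 443 higher, and after quantile normalization 838 lower and 550 higher. CDH5 had to differ to pass the filter, so the count of 4 is a description, and without it 3 of 9 were called. The share called lower differed with level. It was 21.0% of probe sets with a mean under 4, where CDH5 lies, 11.8% from 4 to 6, where 2 of 4 member probe sets were called, 5.86% from 6 to 8, where 0 of 1 was, and 3.46% at 8 or more, where 1 of 4 was. The same 4 probe sets were those without overlap between DPF and HG arrays (24.8% of all tested probe sets did not overlap, 16.5% with DPF lower and 8.3% with DPF higher).

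TJP1 averaged 5.40 ± 0.27 on the DPF arrays, against 6.60 ± 0.09 on the HG arrays (SD, n = 4 each). The log2 change was -1.21 ± 0.18 (SE, limma adjusted p = 0.00911), a DPF level 0.433 times the HG level. Leaving out HG+ replicate 2 ended the call (change -1.17, adjusted p = 0.0596), as did leaving out HG- replicate 2 (change -1.18, adjusted p = 0.0628).

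For CTNNA1 the dimmer tested probe set averaged 4.26 ± 0.71 on the DPF arrays, against 5.93 ± 0.12 on the HG arrays (SD, n = 4 each), with a log2 change of -1.67 ± 0.22 (SE, limma adjusted p = 0.00658) and a DPF level 0.314 times the HG level. Of the 4 it alone passed under every alternative that tested it (adjusted p 0.00172 to 0.0435), and the filter at 6 left it out. The brighter one averaged 7.69 ± 0.29 on the DPF arrays, against 8.47 ± 0.04 on the HG arrays, with a change of -0.78 ± 0.17 (adjusted p = 0.0268). The brighter one did not pass without the filter (adjusted p = 0.0766), with the replicate number as a block (0.0517), or without either DPF- array or any one of the HG arrays (0.0630 to 0.121), while its change stayed between -0.95 and -0.62 over all arrays left out.

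CDH5 averaged 2.62 ± 0.09 on the DPF arrays, against 4.03 ± 0.42 on the HG arrays (SD, n = 4 each). Since the DPF mean is under 4, the difference counted from 4 is -0.03 or lower. It passed the filter only through 2 HG arrays, so it had to differ, and its call is given as a description without a p. Of the other genes seen mainly in vessels or in stroma, EGFL7 was at 7.49 to 7.88 on the DPF arrays, against 7.91 to 8.15 on the HG arrays, without a call (adjusted p = 0.119 in its brighter probe set). SOX17 was at 4.73 to 5.75 on the DPF arrays, against 4.39 to 4.84 on the HG arrays, without a call. The collagen gene COL1A2, of the theca and stroma, was lower in all 3 of its tested probe sets. The brightest had 4.08 to 5.97 on the DPF arrays, against 8.01 to 8.93 on the HG arrays (log2 change -3.77, limma adjusted p = 0.00133). The dimmest of the 3 was under 4 on every DPF array. It passed the filter only through HG arrays, so it had to differ. The other tested gene of that list, PDGFRB, was at 4.08 to 4.84 on the DPF arrays, against 3.64 to 4.04 on the HG arrays, and CYP17A1, the androgen-making enzyme of theca cells, stayed at 2.49 or less on every array. Summed over the 14 theca and stroma genes the log2 level was 6.87 to 7.35 on the DPF arrays, against 8.45 to 9.17 on the HG arrays. COL1A2 carried that difference, since the sum of the 13 others was 6.65 to 6.73 on the DPF arrays, against 6.46 to 6.55 on the HG arrays. Of these 13 all but PDGFRB were under 4 on every array, so their sum was mostly background. Over the 13 endothelial genes it was 8.27 to 8.56 in DPF and 8.46 to 8.59 in HG. Over the 16 granulosa genes it was 14.63 to 15.17 in DPF and 14.93 to 15.12 in HG. The brightest gene weighs most in such a sum. It was EGFL7 in the endothelial list and ZP3, at 13.77 to 14.04 in DPF and 13.94 to 13.99 in HG, in the granulosa list. By probe set, 3 of 4 tested in the theca and stroma list were called lower on the DPF arrays, all of COL1A2. As 1 of these had to differ, that count is a description. Called lower were 1 of 22 in the granulosa list, 1 of 11 in the oocyte and germ cell list and 1 of 3 in the leukocyte list. In the endothelial list 0 of 4 were called lower, in the epithelial list 0 of 3, and none was called higher in any list. The one of leukocytes was of CD74, the invariant chain gene, at 5.29 to 6.41 on the DPF arrays, against 6.92 to 7.55 on the HG arrays (log2 change -1.53, limma adjusted p = 0.0124). GATA4, a transcription factor gene of granulosa cells, was at 4.24 to 5.37 on the DPF arrays, against 5.39 to 5.52 on the HG arrays (log2 change -0.64, limma adjusted p = 0.0425). STAR, of cholesterol transport into mitochondria, was at 7.91 to 9.07 on the DPF arrays, against 9.09 to 10.08 on the HG arrays, without a call (limma adjusted p = 0.0781). INHBA was lower in both of its probe sets, at -1.395 and -1.2325, without a call (limma adjusted p = 0.0610 and 0.0757). Its levels did not overlap between the sources in either probe set. Other granulosa genes went the other way, such as INHA at 0.38 and 0.425, without a call. Among the 22 tested granulosa probe sets 11 changes were negative and 11 positive (median -0.02). NR5A2 was at 1.265 in its brighter and -0.9175 in its dimmer probe set, both without a call. The part of these differences in the results for CDH5, TJP1 and CTNNA1 was not tested.

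A sign of RNA quality moved with the source as well. The level at the 3' end of control transcripts minus that at the 5' end was 2.65 to 3.34 on the DPF arrays, against 2.00 to 2.43 on the HG arrays for actin. For EF1a it was 0.88 to 1.51 in DPF and 0.74 to 0.83 in HG, and for GAPDH 0.21 to 0.63 in DPF and -0.08 to 0.06 in HG. None of the 3 overlapped between the sources. Its part in the junction gene results was not tested, and the hens' source and the handling of their RNA cannot be told apart in this design.

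No other member passed between the sources. GJA1 averaged 10.98 ± 0.35 on the DPF arrays, against 11.11 ± 0.03 on the HG arrays, with a change of -0.12 (95% interval -0.50 to 0.26). CDH2 was at 0.11 (-0.32 to 0.54) in the brighter and -0.39 (-1.32 to 0.55) in the dimmer probe set, which passed without DPF+ replicate 1 (-0.91, limma adjusted p = 0.00618). CLDN1 was at -0.28 (-0.86 to 0.29), and passed without DPF+ replicate 2 (-0.53, adjusted p = 0.0490). CLDN5 was at 0.05 (-0.76 to 0.87) and 0.32 (-0.35 to 0.98).

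In CLDN1, GJA1 and CLDN5 the DPF arrays were not ordered by line. DPF+ replicate 2 and DPF- replicate 1 had the 2 higher DPF levels of CLDN1, and the 2 lower DPF levels of GJA1 and of both CLDN5 probe sets. This split was not particular to junction genes. The median of the tested oocyte and germ cell genes was 4.68 and 5.22 in DPF+ and 4.76 and 4.57 in DPF-. That of the tested granulosa genes was 10.37 and 9.35 in DPF+ and 9.65 and 9.95 in DPF-. Single genes of a list can differ from its median, and the part of cell content in this order was not tested. CDH5 was under 4 on all DPF arrays and has no order there. Of the 9 other tested probe sets, DPF+ replicate 2 was the lowest DPF array in 5, both of CLDN5, both of CDH2 and that of GJA1, and the highest in 2, that of CLDN1 and the brighter one of CTNNA1. Over all tested probe sets it was the lowest in 31.9% and the highest in 40.9%. The DPF+ pair had the largest gap between replicates in 7 of the 9, and its median gap was 0.69, beside 0.57 for DPF-, 0.17 for HG+ and 0.10 for HG-.

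**Figure D3:**
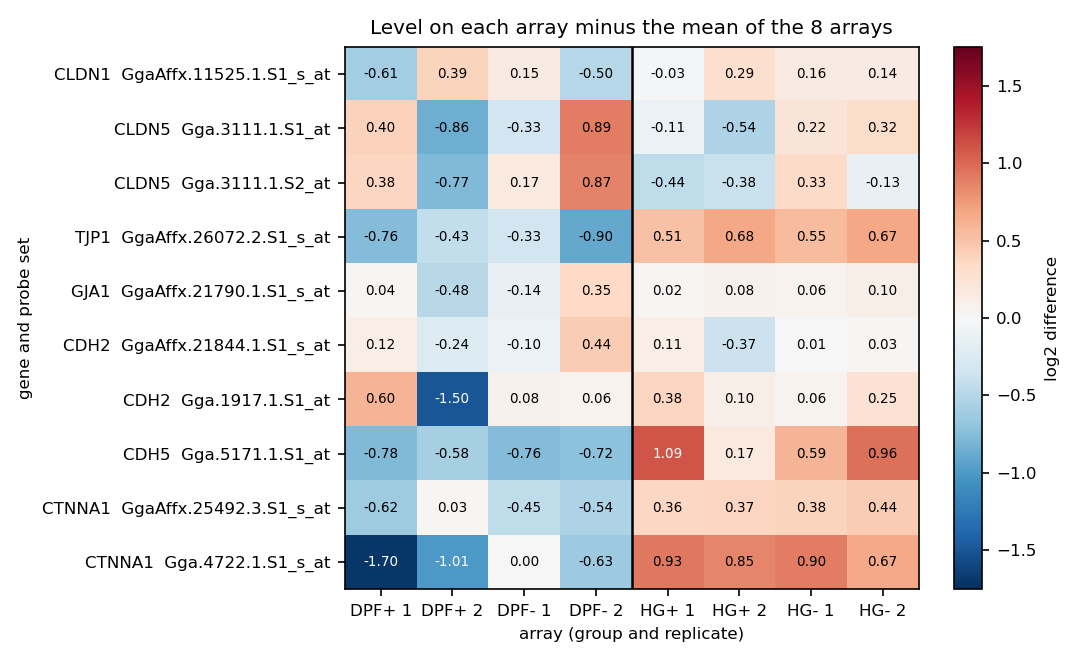
Level of each of the 10 tested probe sets (rows) on each of the 8 arrays (columns) minus the mean of the 8 arrays, as a log2 difference in colour and print. The DPF arrays are left of the black line, and there CLDN1 has the opposite signs to GJA1 and to CLDN5 except on DPF- replicate 1 in the second CLDN5 row.

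Beyond the 9 genes, the junction lists held 89 other genes on the array, and 38 of them passed the filter with 63 probe sets. None of the 63 passed in DPF+ against DPF- or in HG+ against HG-. Their median change was -0.08 in the first and -0.02 in the second, beside 0.02 and -0.02 for all tested probe sets. Between the lines, the smallest p among them belonged to PARD3, which encodes a polarity protein at tight junctions (log2 change -0.82 ± 0.20 SE, limma adjusted p = 0.426, and -0.345 or lower counted from 4, as the DPF+ mean was 3.53), followed by PTPRM (-0.78) and AMOT (0.56), a gene for angiomotin. PKP4 was at 0.39, DSP at -0.58 and the dimmer PANX2 probe set at 0.29. Between HG+ and HG- it belonged to PARD3B (-0.71 ± 0.31 SE, limma adjusted p = 1), with PTPRM at -0.49 (-0.345 or lower counted from 4), PARD3 at -0.44, DSP at -0.40, CDH8, a type II cadherin gene, at -0.31 and JUP, the plakoglobin gene, at -0.17. In the difference of the comparisons none of the 63 passed. PTPRM was at -0.965 and CLDN11, a claudin gene, at -0.99 (limma adjusted p = 0.999 for both), with PKP4 at 0.445 and the dimmer PANX2 probe set at 0.39. Between the sources 8 of the 63 (12.7%) were lower on the DPF arrays and 2 were higher, beside 9% lower and 3.48% higher among all tested probe sets. Of the 8, those of ACTN1, CTNND1 and PTPRM passed the filter only through HG arrays and had to differ, so the count is a description. Those of PARD3B and MPDZ had 1 DPF array each at 4 or more, so they too needed HG arrays to pass. Their median was -0.20, and that of all tested probe sets -0.08. The 8 lower ones were 3 of tight junctions and 5 of adherens junctions, each of another gene.

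In the adherens junction list, CTNNA2, the neural alpha-catenin, averaged 7.62 ± 0.61 on the DPF arrays, against 8.77 ± 0.37 on the HG arrays (SD, n = 4 each; log2 change -1.14 ± 0.28 SE, limma adjusted p = 0.0377). AFDN encodes afadin, which links nectins to actin, and had a change of -1.10 (adjusted p = 0.0129). For ACTN1, an actin crosslinker, for CTNND1, the p120 catenin, and for PTPRM, a receptor phosphatase that binds its like between cells, the called probe set had a DPF mean under 4. Their changes counted from 4 were -0.65, -0.19 and -0.10 or lower. CTNNB1, beta-catenin, the partner of cadherins and of alpha-catenin, was at 10.06 to 10.46 over the 8 arrays and was not called. The P-cadherin gene CDH3, at a mean of 9.05, was not called either.

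In the tight junction list the lower genes were the polarity gene PARD3, its relative PARD3B and the scaffold gene MPDZ, with DPF means under 4 in the called probe sets and changes counted from 4 of -0.52, -0.57 and -0.58 or lower. YBX3, a DNA- and RNA-binding protein that can sit at tight junctions, had a mean of 11.4 and was not called. Of the desmosome genes, PKP4, a plakophilin relative of p120 catenin, was higher on the DPF arrays in 2 of 3 tested probe sets. The brightest averaged 8.09 ± 0.21 on the DPF arrays, against 7.14 ± 0.12 on the HG arrays (log2 change 0.96 ± 0.15 SE, limma adjusted p = 0.0115). The plakophilin gene PKP2 and the desmoplakin gene DSP, with means of 10.4 and 8.63, were not called.

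Calls were often not shared between probe sets of a gene. Among all junction genes 12 had a call between the sources, 7 of these had more than 1 tested probe set, and only CTNNA1 was called in each of them. The brighter probe set of ACTN1 was at -0.19, that of CTNND1 at -0.06, that of MPDZ at 0.12 and the brightest of PARD3 at -0.11, none with a call. In each of these 4 genes the called probe set was a dim one, with a mean from 3.90 to 4.23 over the 8 arrays. Other uncalled probe sets had the sign of the called one, at -0.68 and -0.55 for PTPRM, -0.50 and -0.28 for PARD3 and 0.29 for PKP4. TJP1, CDH5, CTNNA2, AFDN and PARD3B had a single tested probe set, so their changes had no such check.

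**Figure D4:**
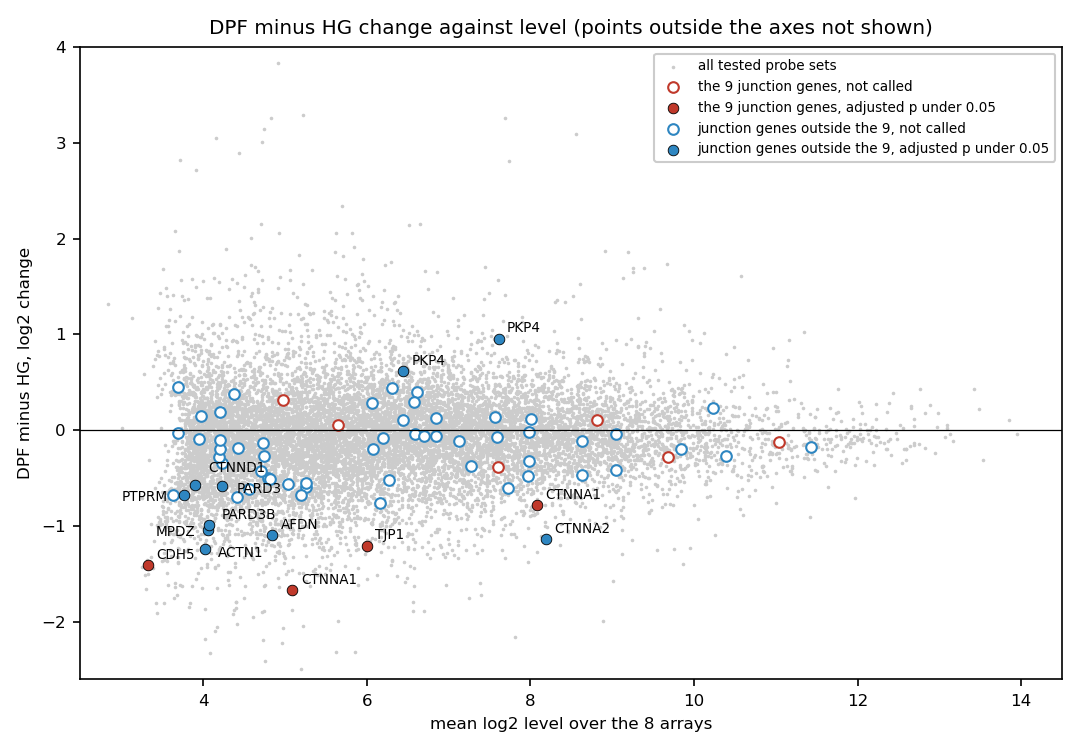
DPF minus HG log2 change (y axis) against the mean log2 level over the 8 arrays (x axis). Grey points are all tested probe sets, red ones those of the 9 junction genes and blue ones those of other junction genes, filled where the adjusted p was under 0.05. Most filled coloured points with a negative change lie at a mean of 6 or less, and the exceptions are the brighter CTNNA1 probe set (8.08) and CTNNA2 (8.19). The filled points of CDH5, ACTN1, CTNND1 and PTPRM passed the filter only through HG arrays and had to differ, so they are a description.

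The genes most like CLDN1 over the 8 arrays were MYH10, a non-muscle myosin heavy chain (Pearson's r = 0.997), ITGB3BP, a centromere protein (0.991), and the lysosomal protease CTSD (0.990). The first CLDN5 probe set was most like NDUFB1 of respiratory complex I (0.959), ERLIN2 of the endoplasmic reticulum (0.956) and the FK506-binding protein FKBP5 (0.955). These are the highest of all tested probe sets by choice, so the coefficients only describe these 8 arrays. For TJP1, CDH5 and CTNNA1 the arrays form 2 clusters, DPF and HG, and no coefficient is given. Their nearest genes were SLAIN2, TLK1 and DTL for TJP1, CTNND1, ANGPT2 and ABHD3 for CDH5, and PCID2, ENTPD4 and PRDM15 for CTNNA1. CDH5 and the probe sets nearest to it all had means under 4 over the 8 arrays. That of CTNND1 was the dimmer of its tested probe sets. GJA1 and the brighter CDH2 probe set varied by an SD of 0.237 and 0.247 over the 8 arrays, too little for such a search, which required 0.3.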

How the data were processed

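Total RNA of hen samples was measured on 8 Affymetrix arrays. The authors deposited log2 values per probe set, made with GCRMA per the submitters' processing notes. Its version, and whether the 8 arrays were normalized together, are not given in the sources used here. Of 38535 probe sets, 96 controls and 8 with a blank value were left out, and 12725 that reached 4 on at least 2 arrays were tested. The platform annotation gave 27178 probe sets 1 gene symbol, 177 several and 11180 none.

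A mean per group was fitted in limma 3.58.1 under R 4.3.3 (lmFit, eBayes with an intensity trend, two-sided, 4 residual degrees of freedom). Benjamini-Hochberg adjustment ran across all 12725 probe sets, with a threshold of 0.05. The number of arrays limits the precision, and all groups share a common estimate of spread per probe set. The fit was tested on simulated data, and Python 3.11.15 was used for the other steps. Marker levels were summed on the linear scale over 1 probe set per gene, that with the highest mean.

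The text names all 9 members and, from the junction lists, every called probe set, the genes of highest mean and those of smallest p, and the 3 genes most like each member with an SD of at least 0.3. The 9 members were given by name. The lists were chosen with earlier results of these data known, and the count from 4 was added after the values were seen. Alternatives were no filter, a filter at 6, quantile normalization, median centring, no trend, array weights, a replicate block, only the 4 arrays of a comparison, and each array left out.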

Additional observations from a re-analysis of the deposited data

Results flagged for a closer look

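In the dimmest probe set of CTNNA1, HG+ replicate 2 stood apart from the other 3 HG arrays, at 2.31 against 2.30 on each of them. The gap is the rounding step of the deposited values, and the probe set was under 4 on every array. It was the only one found in 30 groups of 4 arrays (15 probe sets, each on the DPF and the HG arrays), where chance marks about 1 in 20.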

How the results depend on the processing

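Between DPF and HG, 1588 probe sets passed in limma, and 1045 without the filter (629 of them among the 1588), 549 with the filter at 6 and 870 with the replicate block (863 among the 1588). Leaving out 1 array gave 174 (without HG- replicate 2) to 4846 (without DPF+ replicate 2). Between DPF+ and DPF- 0 passed, with 10 without the filter and 0 to 1070 with 1 array left out (1070 without DPF+ replicate 1, 2 without DPF+ replicate 2). Between HG+ and HG-, and in the difference of the comparisons, 0 passed, and 1 in each without the filter. The deviations of same-numbered arrays from their group means correlated at -0.521 between DPF+ and DPF-, -0.194 between HG+ and HG-, 0.507 between DPF+ and HG+, 0.116 between DPF- and HG-, -0.255 between DPF+ and HG-, and -0.429 between DPF- and HG+. Since not every pair was over 0.1, the numbers were not taken to pair the samples. The replicate block gave 0 calls in both fertility comparisons and in their difference (592, 43 and 283 at an unadjusted p under 0.05). Crossing the numbers, which was chosen after seeing the data, gave 5 calls between DPF+ and DPF- and 0 in the others.

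Of 288 values of the member probe sets under the alternatives that keep all arrays of a comparison, 282 kept sign and call, 2 lost the call and 4 changed sign. Only quantile normalization and median centring could change a sign, since the other settings leave the change itself as it was. A change of 0, as for TJP1 in HG+ minus HG- after median centring, was counted as a kept sign. The sign changes were those of TJP1, whose DPF+ minus DPF- change was -0.0116 after quantile normalization and -0.005 after median centring, and whose difference of comparisons was -0.0025 and -0.005 under these settings. Of 320 values with 1 array left out, 263 kept sign and call, 45 changed sign, 9 lost a call and 3 gained one. Those for an array that a comparison does not use could not change sign. The cause was not tested.

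DPF+ minus DPF- ranged over the arrays left out, with CLDN1 at -0.435 to 0.565, the first CLDN5 probe set at -1.14 to 0.12, TJP1 at -0.265 to 0.305, CDH5 at -0.04 to 0.16, the brighter CDH2 probe set at -0.50 to 0.04, the dimmer at -1.57 to 0.53, and the brighter CTNNA1 probe set at -0.125 to 0.525. For HG+ minus HG- the range was -0.18 to 0.14 for CLDN1, -0.10 to 0.07 for TJP1, -0.615 to 0.315 for CDH5, -0.39 to 0.09 for the brighter and -0.055 to 0.225 for the dimmer CDH2 probe set, and -0.01 to 0.22 for the dimmer CTNNA1 probe set. The difference of the comparisons ranged over -0.415 to 0.585 for CLDN1, -0.545 to 0.715 and -0.775 to 0.375 for CLDN5, -0.25 to 0.32 for TJP1, -0.255 to 0.675 for CDH5, -0.35 to 0.19 for the brighter and -1.655 to 0.445 for the dimmer CDH2 probe set, and -0.08 to 0.57 for the brighter CTNNA1 probe set. For DPF minus HG it was -0.2625 to 0.3675 for the first CLDN5 probe set, -0.2525 to 0.0075 for GJA1, and -0.025 to 0.245 for the brighter and -0.9125 to 0.1375 for the dimmer CDH2 probe set.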
